A study of Mus musculus with 12 samples.

Results

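The genes described here are the nuclear genes of the mitochondrial respiratory chain and ATP synthase. They were taken by symbol from the array's annotation (Nduf with a, b, c, s or v, Sdha to Sdhd, Uqcr, Cyc1, Cycs, Cox4 to Cox8 and Atp5), which gave 91 of 22180 genes with a symbol of their own. Complex I had 32 members, complex II 4, complex III 8, complex IV 19 and complex V 17. A further 8 were Ndufaf assembly factors of complex I, 1 was cytochrome c (Cycs) and 2 were pseudogenes, Atp5c1-ps and Uqcrh-ps1. Ndufa4 and its relative Ndufa4l2 were counted with complex IV, where the Ndufa4 protein is now placed. Another 10 probe sets with such a symbol were left out because they carry several symbols, which removed Cox6c, Ndufb2, Ndufb4, Ndufs6 and Uqcr10.

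Primary smooth muscle cells had been taken from aortas of the inbred mouse strain C57BL/6J. Both groups grew in DMEM containing 10% FCS (serum) and were used at passages 3 to 4. One group was kept in 4.5 g/l (25 mM) glucose and the other in 0.3 g/l (1.7 mM), with 6 samples and 1 array each. The series text gives 14 days in culture and the sample labels 1 week. The labels do not say whether the replicates were separate cultures or animals, so a p-value reflects how far these samples spread, and that spread may be technical. No osmotic control is compared here.

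The respiratory chain passes electrons from NADH (complex I) and succinate (complex II) through coenzyme Q, complex III and cytochrome c to oxygen at complex IV, and pumps protons that drive ATP synthesis at complex V. Most subunits are encoded in the nucleus and a core set in mitochondrial DNA, and dedicated assembly factors put the complexes together. Some subunits of complex IV exist as paired isoforms, one of them made mainly in heart and skeletal muscle. Many nuclear genes of the chain carry promoter sites for nuclear respiratory factor 1 (NRF1), for ETS factors such as GABPA, or for YY1.

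Promoters are shown for 4 called genes of complex I and its assembly and, for contrast, for Cox6a1, whose level hardly differed. The windows run from 250 bases before to 50 bases after the RefSeq start (GRCm38.p6), 5′ to 3′ on the gene's strand. Capitals mark matches to the NRF1 motif core GCGCATGCG, the ETS motif CCGGAAG or the YY1 motif core AAGATGGCG, each on either strand, so that adjoining matches of the palindromic NRF1 site run together. Ndufaf4 lies at chr4:24897833-24898132 on the plus strand, Ndufs7 at chr10:80249199-80249498 on the plus strand, and Ndufs8 at chr19:3912725-3913024 on the minus strand. Ndufv2 lies at chr17:66101510-66101809 and Cox6a1 at chr5:115348909-115349208, both on the minus strand.
Ndufaf4: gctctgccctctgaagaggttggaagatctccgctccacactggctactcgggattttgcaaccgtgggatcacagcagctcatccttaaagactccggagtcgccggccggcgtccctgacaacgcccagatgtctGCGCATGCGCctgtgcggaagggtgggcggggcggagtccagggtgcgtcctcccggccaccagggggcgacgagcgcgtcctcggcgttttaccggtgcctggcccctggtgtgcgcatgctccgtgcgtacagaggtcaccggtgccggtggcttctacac
Ndufs7: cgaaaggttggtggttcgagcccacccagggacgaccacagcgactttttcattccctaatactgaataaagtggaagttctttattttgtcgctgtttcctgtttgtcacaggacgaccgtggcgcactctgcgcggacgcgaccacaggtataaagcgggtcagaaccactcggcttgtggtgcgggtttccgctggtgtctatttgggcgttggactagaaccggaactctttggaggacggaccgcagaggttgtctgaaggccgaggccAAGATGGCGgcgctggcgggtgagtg
Ndufs8: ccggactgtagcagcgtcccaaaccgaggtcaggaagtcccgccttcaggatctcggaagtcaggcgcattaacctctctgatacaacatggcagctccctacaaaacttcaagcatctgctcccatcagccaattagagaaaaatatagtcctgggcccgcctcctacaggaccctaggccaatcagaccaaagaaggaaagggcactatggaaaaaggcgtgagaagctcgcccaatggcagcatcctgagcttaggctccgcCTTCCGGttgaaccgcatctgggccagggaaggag
Ndufv2: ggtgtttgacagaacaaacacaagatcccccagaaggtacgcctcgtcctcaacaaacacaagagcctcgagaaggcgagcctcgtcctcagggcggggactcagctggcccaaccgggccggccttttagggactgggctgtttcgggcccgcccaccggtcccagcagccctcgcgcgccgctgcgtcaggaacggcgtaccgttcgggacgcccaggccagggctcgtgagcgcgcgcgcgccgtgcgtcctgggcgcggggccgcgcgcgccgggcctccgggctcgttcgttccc
Cox6a1: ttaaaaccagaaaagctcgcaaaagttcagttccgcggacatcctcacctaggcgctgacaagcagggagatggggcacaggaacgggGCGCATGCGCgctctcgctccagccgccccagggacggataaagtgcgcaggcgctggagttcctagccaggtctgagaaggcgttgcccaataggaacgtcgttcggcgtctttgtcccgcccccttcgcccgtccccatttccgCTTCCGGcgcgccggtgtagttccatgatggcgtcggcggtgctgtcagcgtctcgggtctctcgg
Both strands were searched for these motifs and for CAAGGTCA, bound by oestrogen-related receptors, and CACGTG, an E-box core. A window was listed for 73 of the 89 members that are not pseudogenes, 78 windows in all. The ETS motif was in 24.4% of these windows against 8.86% of all 32851 windows, NRF1 in 14.1% against 1.75%, YY1 in 8.97% against 1.4%, CAAGGTCA in 5.13% against 1.56% and CACGTG in 8.97% against 7.15%. Matches of different motifs overlapped in 0 member windows. Of the printed genes, Ndufs8 carried an ETS match, Ndufaf4 an NRF1 match and Ndufs7 a YY1 match, and Cox6a1, which did not pass the test below, carried both an NRF1 and an ETS match. Ndufv2 carried none of the 5 motifs in this window. The windows used here listed none for Cox6a2 or Uqcrq, so their promoters were not searched.

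Values below are log2 RMA values, so a difference of 1 is a doubling, and a level is compared only within a gene. Medians of the arrays over all probe sets ran from 4.92 to 5.05. Replicate 4 of the 0.3 g/l group stood apart: over all genes its highest correlation was 0.992 with a 4.5 g/l array and 0.987 with an array of its own group. The member counts, and the values of called members that rest on it, are also given without it. Smooth muscle markers were high, with Acta2 at 13.83 ± 0.06 in 4.5 g/l and 13.15 ± 0.24 in 0.3 g/l and Myh11 at 10.58 ± 0.23 and 7.40 ± 0.69 (mean ± SD, n = 6 each, 4.5 g/l first). The mean of 8 smooth muscle markers was 10.59 to 10.79 in 4.5 g/l and 9.07 to 9.29 in 0.3 g/l, except 10.22 in replicate 4. Of these 8, 6 were called higher (75%, against 7.01% of all genes). Endothelial markers were also present: 7 of 8 had a negative difference (median -0.21, lowest Cdh5 at -0.59), as had 11499 of all 22180 genes. In limma 1 of the 8 was called (Emcn, -0.43), 12.5% against 15.5% of all genes. Once 0.3 g/l replicate 4 was left out, where 23.9% of all genes passed, 3 were called lower. The mean of the 8 markers was 8.23 to 8.31 for replicates 1, 2 and 3 of 4.5 g/l, and 7.54 to 7.58 for replicates 4, 5 and 6. In 0.3 g/l it was 7.71 for replicate 4, and 8.21 to 8.30 for the rest. In limma 0 of 6 macrophage, 0 of 6 fibroblast and 0 of 6 adipocyte markers passed, against 15.5% of all genes. At an unadjusted p under 0.05 there were 0, 1 and 0. With 0.3 g/l replicate 4 left out, 2 fibroblast markers were called higher (Pdgfra and Col1a1, 0.44 each). In such bulk samples, fewer cells of a type and less RNA per cell cannot be told apart.

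Expression of most respiratory chain genes differed little between 4.5 and 0.3 g/l glucose, with 1 large exception, Cox6a2, the heart and skeletal muscle isoform of a complex IV subunit, which was 4.15-fold lower in 4.5 g/l. In limma with Benjamini-Hochberg adjustment over all genes, 9 of 91 members passed an adjusted p of 0.05, which is 9.89% of them against 15.5% of all genes. Of these, 8 were lower in 4.5 g/l (8.52% of all genes were) and 1 was higher (7.01% of all genes). The called genes were Ndufs7, Ndufs8, Ndufa2 and Ndufa10 of complex I, the assembly factors Ndufaf4 and Ndufaf8, Uqcrq of complex III and Cox6a2, all lower, and Ndufv2 of complex I, higher. Without 0.3 g/l replicate 4, 4 members rose and 12 fell, against 23.9% of all genes called. With each array centred on its median, 0 rose and 11 fell. That scaling lowered differences in general: the median over all genes went from -0.01 to -0.05. The move towards lower values was thus not particular to the members.

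The differences were small as well as mostly uncalled. The median log2 difference over the 91 members was -0.03, against -0.01 over all genes, and the median size of a difference was 0.08 against 0.11. Only Cox6a2 differed by 1.5-fold or more. The 95% interval of the difference lay within 1.2-fold either way for 53 members (31.5% of all genes) and within 1.5-fold for 85 (87.3% of all genes). The 6 members whose interval reached past 1.5-fold were Cox6a2, Uqcrq, Ndufb11, Cox6b2, Atp5g1 and the pseudogene Atp5c1-ps. Uncalled members ran from -0.50 (Atp5g1) to 0.20 (Cox4i2).

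**Figure D1:**
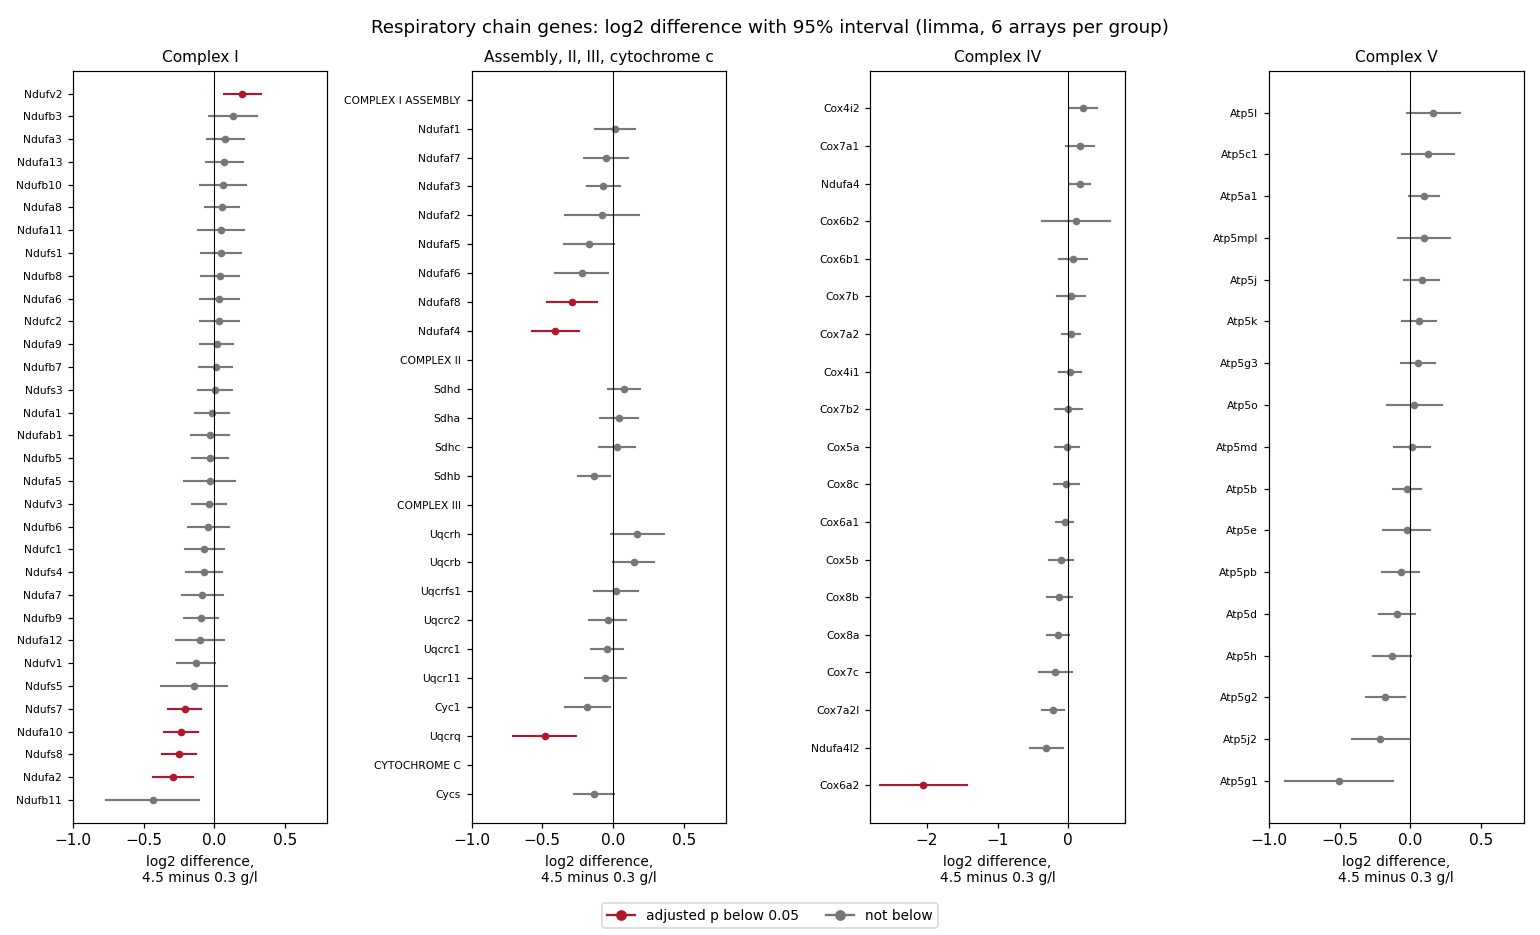
Log2 difference, 4.5 minus 0.3 g/l glucose, of 89 members (points) with the 95% interval of limma (lines), by complex; the axis of complex IV is wider than the others. Red marks the 9 called members; Cox6a2, at -2.05, lies far from the other members, which run from -0.50 to 0.20.

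Complex I, which oxidises NADH, had 5 called members of 32, 4 lower and 1 higher. That is 15.6% of them, near the 15.5% of all genes. The median log2 difference was -0.03. Ndufs7 and Ndufs8 carry iron-sulfur clusters of the arm that leads electrons to coenzyme Q, and Ndufa2 and Ndufa10 are accessory subunits.

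Ndufs8 (probe set 17361032) had a lowest, median and highest value of 9.07, 9.19 and 9.25 in 4.5 g/l, against 9.32, 9.43 and 9.53 in 0.3 g/l. The groups did not overlap, and the difference was -0.25 ± 0.06 (SE, n = 6 each, limma adjusted p = 0.00837). Ndufs7 (17235268) had 9.82, 9.95 and 10.03 in 4.5 g/l and 10.07, 10.17 and 10.21 in 0.3 g/l, with a difference of -0.21 ± 0.06 (limma adjusted p = 0.0198). Every 4.5 g/l array was again below every 0.3 g/l array. Both genes kept these sizes without 0.3 g/l replicate 4, at -0.25 for Ndufs8 and -0.21 for Ndufs7. With replicates 1, 2 and 3 alone, where 13.1% of all genes passed, Ndufs8 and Ndufs7 differed by -0.20 and -0.13 and neither was called (limma adjusted p = 0.122 and 0.318). Ndufs7 also missed the threshold after a further quantile normalization (limma adjusted p = 0.0645) and after cyclic loess (0.0503).

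Ndufa2 (17353752) showed 8.73, 8.96 and 9.04 in 4.5 g/l as lowest, median and highest, against 9.12, 9.23 and 9.34 in 0.3 g/l (difference -0.29 ± 0.07, SE, limma adjusted p = 0.00937). Ndufa10 (17225564) showed 9.70, 9.78 and 9.91 in 4.5 g/l, against 9.96, 10.04 and 10.08 in 0.3 g/l (difference -0.24 ± 0.06, limma adjusted p = 0.0114). Neither gene had overlapping groups, so 4 of the 32 members of complex I had none. Over all members it was 8 of 91, against 1419 of 22180 genes (6.4%).

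Ndufv2 (17346802), an iron-sulfur subunit next to the NADH-binding site, was the member that rose. Its values were 9.65, 9.71 and 9.80 in 4.5 g/l and 9.40, 9.54 and 9.65 in 0.3 g/l, and the groups overlapped slightly. The difference was 0.20 ± 0.06 (SE, limma adjusted p = 0.0411), and the call was lost when any of 9 single arrays was left out, with adjusted p from 0.0509 to 0.0924, and with median centring of the arrays (0.176). Its neighbours in the NADH-binding module did not pass: Ndufv1, which holds the flavin, differed by -0.13 ± 0.06 (limma adjusted p = 0.199) and Ndufs1 by 0.05 ± 0.07 (limma adjusted p = 0.729). Ndufb11, an accessory subunit of the membrane arm, had the widest interval of complex I. It had 5.24, 5.80 and 6.02 in 4.5 g/l and 5.75, 6.16 and 6.63 in 0.3 g/l, and was called once 0.3 g/l replicate 4 was left out (-0.52, limma adjusted p = 0.0203; with all arrays -0.44, 0.0723).

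Assembly factors of complex I named Ndufaf had a lower median than the subunits, -0.12, and 7 of 8 had a negative difference. Of the 8, 2 were called, both lower, which is 25% against 15.5% of all genes. Ndufaf4 (17412272) had 7.41, 7.55 and 7.61 in 4.5 g/l as lowest, median and highest, against 7.62, 8.00 and 8.06 in 0.3 g/l. The groups did not overlap, by a narrow margin: the lowest 0.3 g/l value was that of replicate 4, and the other 5 lay between 7.94 and 8.06. The difference was -0.41 ± 0.08 (SE, limma adjusted p = 0.00285) and -0.47 without that array. Ndufaf8 (17259264), the partner of Ndufaf5, had 6.33, 6.60 and 6.67 in 4.5 g/l and 6.58, 6.87 and 7.02 in 0.3 g/l, a difference of -0.29 ± 0.08 (limma adjusted p = 0.0271). Its groups overlapped through 0.3 g/l replicate 4 alone, and its call was lost when any of 6 other single arrays was left out (adjusted p from 0.0552 to 0.0672). Ndufaf6 and Ndufaf5 differed by -0.22 ± 0.09 and -0.17 ± 0.08 and did not pass (limma adjusted p = 0.108 and 0.206).

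Complex II, succinate dehydrogenase, had 0 called members of 4 in limma, against 15.5% of all genes called. With so few members that count says little. An unadjusted p under 0.05 was found for 1 of them. The iron-sulfur subunit Sdhb (17420897) had 8.34, 8.38 and 8.42 in 4.5 g/l, against 8.42, 8.52 and 8.60 in 0.3 g/l. These groups did not overlap, yet the difference was -0.14 ± 0.05 (SE, limma adjusted p = 0.0992), and -0.15 without 0.3 g/l replicate 4, where it passed (limma adjusted p = 0.0306). The flavoprotein Sdha differed by 0.05 ± 0.06, and the membrane anchors Sdhc and Sdhd by 0.03 ± 0.06 and 0.08 ± 0.05. All 4 intervals lay within 1.2-fold.

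Complex III, which passes electrons from coenzyme Q to cytochrome c, had 1 called member of 8, 12.5% against 15.5% of all genes. Uqcrq (17262650), a small accessory subunit, had 6.45, 6.64 and 6.83 in 4.5 g/l and 6.69, 7.18 and 7.33 in 0.3 g/l. The groups overlapped through replicate 4 of 0.3 g/l, the array at 6.69, and the rest of its group lay at 7.09 to 7.33, above all 4.5 g/l arrays. The difference was -0.48 ± 0.10 (SE, 1.4-fold lower, limma adjusted p = 0.00654), and -0.57 without that array.

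Cytochrome c1, Cyc1 (17312396), had 7.59, 7.72 and 7.85 in 4.5 g/l, against 7.73, 7.87 and 8.05 in 0.3 g/l (difference -0.18 ± 0.07, SE, limma adjusted p = 0.119). The core subunits Uqcrc1 and Uqcrc2 and the Rieske iron-sulfur protein Uqcrfs1 differed by -0.04, -0.04 and 0.02. Without 0.3 g/l replicate 4, Cyc1 fell and Uqcrb and Uqcrh rose (0.19 and 0.24, limma adjusted p = 0.0240 and 0.0168), so 4 of 8 passed there. With that array left out, 23.9% of all genes passed. Cytochrome c, Cycs, the mobile carrier that is also released in apoptosis, had 10.42, 10.61 and 10.70 in 4.5 g/l and 10.59, 10.75 and 10.87 in 0.3 g/l (difference -0.14 ± 0.07, SE, limma adjusted p = 0.20). Its 5 probe sets all differed by -0.16 to -0.14, 2 of them with identical values.

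Complex IV, cytochrome c oxidase, had 1 called member of 19 (5.26%, against 15.5% of all genes), and it held the largest difference of all members. Cox6a2 (probe set 17496857), the isoform of subunit VIa made in heart and skeletal muscle, had 5.77, 6.16 and 6.35 as lowest, median and highest in 4.5 g/l, against 6.57, 8.44 and 8.67 in 0.3 g/l. The groups did not overlap. Replicate 4 of 0.3 g/l lay at 6.57, next to the 4.5 g/l arrays, and the other 5 lay between 8.30 and 8.67. The log2 difference was -2.05 ± 0.29 (SE, n = 6 each, limma adjusted p = 0.000499), with a 95% interval from -2.67 to -1.44, and -2.37 without 0.3 g/l replicate 4. Counting Cox6a2 itself, 12 of 22180 genes (0.0541%) lay at or below that difference, and 1.98% of all genes were called and at least 1.5-fold lower. With replicates 1, 2 and 3 alone the difference was -2.48. With replicates 4, 5 and 6 alone, where 0.135% of all genes passed, it was -1.62 and was not called (limma adjusted p = 0.179). Smooth muscle markers, higher in 4.5 g/l and also high in 0.3 g/l replicate 4, moved with Cox6a2 in the opposite direction, and their part in the result was not tested.

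Its partner Cox6a1 (17451726), the isoform of most tissues, had 12.54, 12.67 and 12.74 in 4.5 g/l and 12.63, 12.69 and 12.79 in 0.3 g/l (difference -0.05 ± 0.06, SE, limma adjusted p = 0.635). The 95% interval of that difference ran from -0.17 to 0.07. Cox6a1 was bright, not far below the highest value in the table, 13.90, where an array responds less to further RNA. The mean of 6 striated muscle markers (Ckm, Myh6, Myh7, Tnnt2, Actn3 and Mb), a tissue where Cox6a2 is abundant, was 5.56 to 5.99 in 4.5 g/l, against 5.38 to 5.64 in 5 of the 0.3 g/l arrays and 5.89 in replicate 4. Of these markers 5 had a positive difference, opposite to Cox6a2, as had 10681 of all 22180 genes. In limma 1 of the 6 was called, 16.7% against 15.5% of all genes. The part of striated muscle cells in the Cox6a2 result was not tested. Actn3 rose by 0.38, and Tnnt2 differed by 0.73 without passing (limma adjusted p = 0.155). With 0.3 g/l replicate 4 left out, where 23.9% of all genes were called, both were called higher, Tnnt2 by 0.98. Of the nearest RefSeq genes to Cox6a2 on chromosome 7, 5 were measured. Itgad, which overlaps Cox6a2, had 3.35 in 4.5 g/l and 3.40 in 0.3 g/l, a difference of -0.06 ± 0.10. Slc5a2 fell by 0.24, Tgfb1i1 rose by 0.76, and Itgax and 4931431B13Rik did not pass (0.09 and -0.09).

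**Figure D2:**
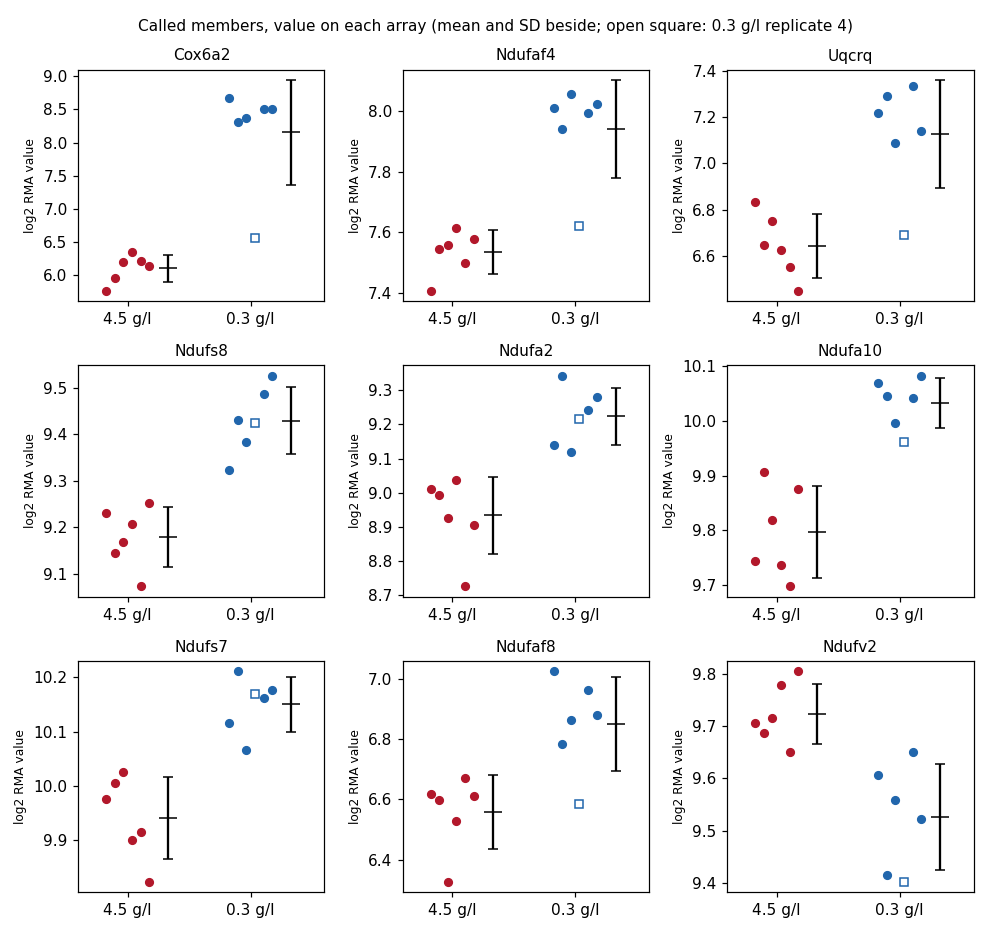
Log2 RMA value on each array of the 9 called members, 4.5 g/l in red and 0.3 g/l in blue, with mean and SD (n = 6) as bars; each panel has its own axis. The open square, 0.3 g/l replicate 4, lies near the 4.5 g/l arrays for Cox6a2 (6.57), Ndufaf4 (7.62), Uqcrq (6.69) and Ndufaf8 (6.58), and with its own group for Ndufs8, Ndufa2 and Ndufs7.

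The other isoform sets of complex IV did not pass. Cox4i1, the common isoform, differed by 0.02 ± 0.07 (SE) and Cox4i2, the isoform induced by low oxygen in lung and other tissues, by 0.20 ± 0.09 (limma adjusted p = 0.886 and 0.172). Cox4i2 lay at 6.15, 6.27 and 6.60 in 4.5 g/l as lowest, median and highest, and at 5.84, 6.15 and 6.33 in 0.3 g/l, with overlapping groups. The muscle isoforms Cox7a1 and Cox8b differed by 0.17 ± 0.09 and -0.13 ± 0.08, and their common partners Cox7a2 and Cox8a by 0.04 ± 0.06 and -0.15 ± 0.07. With replicates 1, 2 and 3 alone Cox7a1 rose by 0.36 (limma adjusted p = 0.0251), and with replicates 4, 5 and 6 alone it differed by -0.03. Cox8b, Cox8c and Cox7b2 had means below 4.20, under which the dimmest 25% of genes lay, so small changes of these would not show.

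Cox6b2, known as the testis isoform of subunit VIb, differed by 0.11 ± 0.22 (SE, limma adjusted p = 0.821), but the 4.5 g/l arrays fell into a higher and a lower set. Replicates 1, 2 and 3 of 4.5 g/l had 7.41 to 7.80, and replicates 4, 5 and 6 had 6.42 to 6.83, while the 0.3 g/l arrays had 6.83 to 7.31. The first set alone gave a rise of 0.59 (limma adjusted p = 0.0451) and the second a difference of -0.38 (limma adjusted p = 0.255). Some other markers split the same 4.5 g/l arrays. For replicates 4, 5 and 6, against replicates 1, 2 and 3, the mean of endothelial markers was lower, as given above, that of fibroblast markers was 6.11 to 6.32 against 6.44 to 6.49, and that of adipocyte markers 4.66 to 4.77 against 4.86 to 4.97. The adipocyte means lay near the array medians, 4.92 to 5.05. Smooth muscle markers ran the other way, at 10.76 to 10.79 against 10.59 to 10.68. The sets overlapped for macrophage markers (4.76 to 4.98 against 4.93 to 5.06) and striated muscle markers (5.76 to 5.99 against 5.56 to 5.77). The part of any of these markers in the Cox6b2 result was not tested. The common isoform Cox6b1 differed by 0.07 ± 0.09.

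Cox7a2l had 7.73, 7.94 and 8.09 in 4.5 g/l, against 8.00, 8.18 and 8.29 in 0.3 g/l. The difference of -0.22 ± 0.07 (SE) fell just short (limma adjusted p = 0.0540). Ndufa4 had 10.90, 11.03 and 11.16 in 4.5 g/l and 10.80, 10.86 and 11.02 in 0.3 g/l (difference 0.16 ± 0.07, limma adjusted p = 0.121). Its relative Ndufa4l2, which is induced by hypoxia, had 4.39, 4.65 and 4.87 in 4.5 g/l and 4.58, 4.90 and 5.24 in 0.3 g/l (difference -0.31 ± 0.11, limma adjusted p = 0.0750). Both passed without 0.3 g/l replicate 4, in opposite directions (0.19 and -0.38).

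Complex V, the ATP synthase, had 0 called members of 17 in limma, against 15.5% of all genes called. At an unadjusted p under 0.05 there were 3, and the median difference was 0.01. Atp5b and Atp5a1 encode the catalytic core subunits. Atp5b had 11.85, 11.90 and 11.92 in 4.5 g/l and 11.86, 11.93 and 11.94 in 0.3 g/l, and Atp5a1 differed by 0.10 ± 0.05 (SE, limma adjusted p = 0.225). The 3 genes that encode the same mature c subunit of the rotor ring, Atp5g1, Atp5g2 and Atp5g3, differed by -0.50 ± 0.18, -0.18 ± 0.06 and 0.06 ± 0.06 (limma adjusted p = 0.0726, 0.0765 and 0.595).

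Atp5g1 (17268289) was scattered, with 5.18, 5.65 and 6.36 in 4.5 g/l and 5.83, 6.14 and 6.58 in 0.3 g/l. Atp5g2 had 11.10, 11.24 and 11.29 in 4.5 g/l, against 11.31, 11.38 and 11.58 in 0.3 g/l, so its groups did not overlap although it did not pass, and its second probe set gave the same difference, -0.18. Atp5j2, which encodes subunit f, differed by -0.21 ± 0.09 (SE, limma adjusted p = 0.153). Other subunits of the complex ran from -0.13 (Atp5h) to 0.16 (Atp5l).

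Means over the genes of a complex are given as a description. For complex I the mean log2 value was 8.37 ± 0.05 in 4.5 g/l and 8.41 ± 0.03 in 0.3 g/l (mean ± SD over 6 arrays each), for complex II 9.30 ± 0.04 and 9.30 ± 0.03, for complex III 8.41 ± 0.03 and 8.47 ± 0.05, and for complex V 8.82 ± 0.03 and 8.85 ± 0.04, 4.5 g/l first throughout. Complex IV had 7.55 ± 0.03 in 4.5 g/l and 7.67 ± 0.03 in 0.3 g/l, and 7.63 ± 0.04 and 7.65 ± 0.05 when Cox6a2 was left out. Its gap between groups was thus carried by that 1 gene. Ndufaf factors averaged 6.71 to 6.84 in 4.5 g/l and 6.79 to 7.01 in 0.3 g/l.

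**Figure D3:**
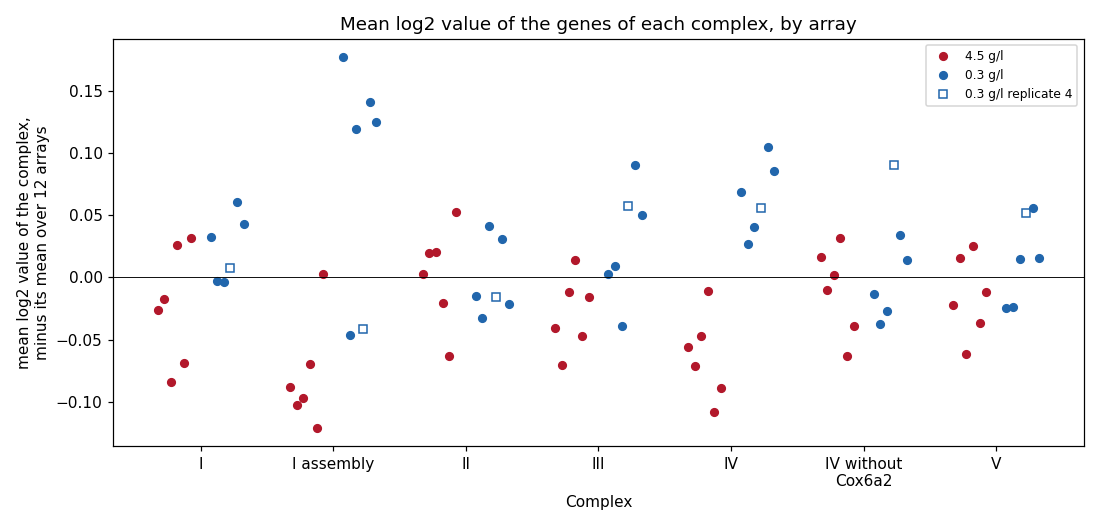
Mean log2 value of the genes of each complex on each array, minus that complex's mean over 12 arrays; red, 4.5 g/l, left of blue, 0.3 g/l, with 0.3 g/l replicate 4 as an open square. The groups are apart for complex IV (7.50 to 7.60 against 7.64 to 7.71) but overlap when Cox6a2 is left out (7.57 to 7.67 against 7.60 to 7.73).

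Of other mitochondrial genes, more were called lower in 4.5 g/l than higher. Over the 86 measured nuclear genes of 7 lists outside the rule, import, chaperone and fusion genes among them, 23 fell and 4 rose. That is 31.4% called against 15.5% of all genes, with a median log2 difference of -0.11 against -0.01. The lists were chosen with earlier results of these data known, so that contrast is only a description. Only 1 of the 86 was dim (mean under 4.20), against 5545 of 22180 genes, so all genes are not a like background. Without 0.3 g/l replicate 4, where 23.9% of all genes were called, 36 fell and 5 rose. Of the 27 called genes, 19 kept the call whichever single array was left out, and 8 did not. No test compared these genes with the subunits.

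Coenzyme Q synthesis had 5 of 12 genes lower and 1 higher, 50% called against 15.5% of all genes. The methyltransferase Coq5 had 9.26 to 9.62 in 4.5 g/l and 9.65 to 10.19 in 0.3 g/l and fell by 0.47 ± 0.09 (SE, limma adjusted p = 0.00310). Coq8b, a kinase-like protein, fell by 0.42, Coq10a by 0.40, Coq4 by 0.32 and Pdss2, which makes the isoprenoid tail, by 0.26 (lost on leaving out any of 9 arrays), while Coq8a rose by 0.37. Among assembly genes of complex IV, 4 of 20 fell and 1 rose (25% called) besides 15 that did not pass. Lrpprc, which stabilises mitochondrial mRNAs, fell by 0.58 ± 0.15, Cox10, which makes haem A precursor, by 0.43 ± 0.10, Surf1 by 0.29 and Coa3 by 0.21. The calls of Surf1 and Coa3 were lost on leaving out any of 9 and any of 8 single arrays, and that of Coa3 also after quantile normalization (limma adjusted p = 0.0723) or cyclic loess (0.0781). Cox20, a chaperone of the mitochondrially encoded subunit 2, had 10.29 to 10.57 in 4.5 g/l and 9.66 to 10.19 in 0.3 g/l and rose by 0.52 ± 0.09 (limma adjusted p = 0.00199).

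Other assembly genes of complex I had 3 of 8 lower, 37.5% against 15.5% of all genes called. Foxred1 fell by 0.38, Timmdc1 by 0.26 and Ecsit by 0.26. Leaving out any of 7 single arrays ended the call of Timmdc1 (limma adjusted p from 0.0523 to 0.0640), and any of 10 that of Ecsit (0.0590 to 0.0984). For complexes II and III, 2 of 10 fell and 1 rose (30% called). Uqcc2, needed for cytochrome b, fell by 0.35 and Lyrm7, a chaperone of the Rieske protein, by 0.49, while Ttc19 rose by 0.26. The calls of Lyrm7 and Ttc19 were each lost on leaving out any of 5 single arrays, and that of Ttc19 with median centring (limma adjusted p = 0.0577). Of 7 genes that assemble or control ATP synthase or exchange its products, 0 passed in limma, against 15.5% of all genes. An unadjusted p under 0.05 was found for 2 of the 7.

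Regulators of the chain and of mitochondrial DNA were split. Of 16 measured, 4 were called, all lower, which is 25% against 15.5% of all genes. Tfb1m, which methylates mitochondrial ribosomal RNA, had 7.33 to 7.50 in 4.5 g/l and 7.59 to 8.19 in 0.3 g/l and fell by 0.56 ± 0.09 (SE, limma adjusted p = 0.000981). Twnk, the mitochondrial DNA helicase, fell by 0.52, Tfb2m, a mitochondrial transcription factor, by 0.42, and the coactivator Pprc1 by 0.32. The call of Tfb2m was lost on leaving out any of 9 single arrays (limma adjusted p from 0.0573 to 0.0794) and when its probe sets were averaged (-0.32, 0.0808). The better known regulators did not pass with all arrays: Ppargc1a (PGC-1 alpha) differed by 0.00 ± 0.12, Ppargc1b by 0.10 ± 0.07, Nrf1 by -0.11 ± 0.06, Gabpa by -0.04 ± 0.08, Esrra by 0.00 ± 0.08 and Tfam by -0.21 ± 0.09. Tfam was called lower once 0.3 g/l replicate 4 was left out (-0.26, limma adjusted p = 0.0352) and with array weights (-0.26, 0.0272). Ppargc1a was dim, at 3.73 in both groups.

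A list drawn up as measures of mitochondrial mass held citrate synthase, channel, import, chaperone and fusion genes. In it 5 of 13 fell and 1 rose, 46.2% called against 15.5% of all genes. Those that fell were the chaperones Hspa9 (by 1.01 ± 0.15, SE, 2.01-fold lower, limma adjusted p = 0.000730) and Hspd1 (by 0.74), the import channel genes Tomm40 (by 0.43) and Timm23 (by 0.31), and Phb2 (by 0.24). Mfn2, a fusion gene, rose by 0.29. Citrate synthase, Cs, and the channel Vdac1, also of this list and often used as measures of mitochondrial content, differed by -0.03 ± 0.07 and 0.03 ± 0.05. The median of the whole list was -0.19, so its members gave no single reading of mitochondrial content. Hspa9 lay at 10.98 to 11.16 in 4.5 g/l, at 11.26 in 0.3 g/l replicate 4 and at 12.20 to 12.29 in the other 0.3 g/l arrays.

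Subunits encoded in mitochondrial DNA showed 0 called of 10 measured in limma, against 15.5% of all genes called. An unadjusted p under 0.05 was found for 0 of them, and differences ran from 0.00 (ND3) to 0.04 (ND2). Their 95% intervals all lay between -0.11 and 0.18. Of these genes 9 had means of 12.98 to 13.70, close to the highest value in the table, 13.90, where an array responds less to further RNA. ND6, at 10.08, was below that range and differed by 0.04 ± 0.07 (SE).

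**Figure D4:**
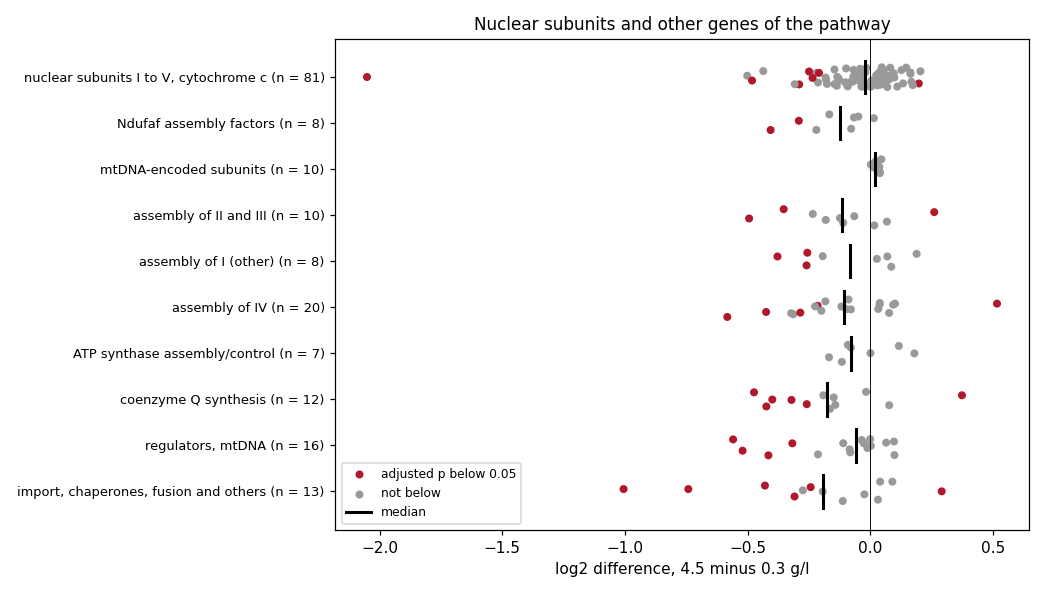
Log2 difference, 4.5 minus 0.3 g/l glucose, of each gene (points; red, called) and the median (bar) for the 81 nuclear subunits, the 8 Ndufaf factors and 8 lists of other genes of the pathway. The mitochondrially encoded subunits gather at 0.02 and the nuclear subunits at -0.02, with medians of -0.18 for coenzyme Q synthesis and -0.19 for the list of import, chaperone and fusion genes.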

How the data were processed

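RNA was labelled with biotin and hybridised to an Affymetrix mouse array, 1 array for each of 12 samples, per the labels' protocols. The authors deposited log2 values per probe set, made with Affymetrix Expression Console and RMA, per the submitters' processing notes; versions and genome build are not given in the sources used here. RMA equalises the distributions of the arrays, which hides a shift in RNA content per cell and shrinks differences between dim signals. Among 41345 probe sets, 23521 carried 1 symbol. Where a gene had several, the one with the highest mean stood for it, which left 22180 genes. Near-identical copies can share signal, so genes with processed pseudogenes, such as Cycs, are uncertain.

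Groups came from the labels. Each gene's difference, 4.5 minus 0.3 g/l, was tested two-sided without a block using lmFit and eBayes of limma 3.58.1 (R 4.3.3), after checks on simulated data; p-values were adjusted by Benjamini-Hochberg for all 22180 genes and called at 0.05. The members, lists and motifs were chosen with earlier results of these data known, and the NRF1 and YY1 motifs were shortened to cores after longer forms had been searched. Values on the arrays were given, per complex, for up to 4 called members with the smallest p (where under 2 were called, the 2 largest differences), for isoform sets, Sdha to Sdhd, Cycs and Cyc1, and, per other list, for up to 4 called genes with the smallest p and for 6 regulators. Other named genes, Ndufv2 and the neighbours of Cox6a2 among them, were chosen after their values were seen. The labels do not say whether equal replicate numbers pair the arrays. Deviations of same-number arrays correlated at -0.05 to 0.17, which cannot settle it. No read depth exists for arrays, so precision rests on their number: the typical (median) SE was 0.0667 log2 units for members and 0.0931 for all genes.

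Alternatives were moderation with a trend, leaving out the dimmest 25% of genes, 3 other scalings, averaging a gene's probe sets, weighting arrays, blocking on the replicate number, ranges of replicates alone or as a term, testing for more than a 1.2-fold change, and omitting single arrays. Promoter windows are those of RefSeq (GRCm38.p6). Plots were made with matplotlib 3.10.9.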

Additional observations from a re-analysis of the deposited data

Results flagged for a closer look

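Each value below lay further from the other 5 samples of its group than Dixon's 95% limit for the gap to its nearest neighbour as a share of the group's range. This held for 13 of 138 groups examined, where chance gives about 1 in 20 for independent groups. These groups share the same 12 arrays, and many genes were picked by their calls here, so that rate is no sound reference. Replicate 4 of 0.3 g/l accounted for 11 of the 13. It had 6.57 for Cox6a2 (others 8.30 to 8.67), 7.62 for Ndufaf4 (7.94 to 8.06) and 11.58 for Atp5g2 (11.31 to 11.40). Outside the members it had 6.56 for Ecsit (6.90 to 7.02), 7.43 for Lrpprc (8.22 to 8.44), 7.59 for Tfb1m (7.97 to 8.19), 5.82 for Twnk (6.21 to 6.37), 7.69 for Pprc1 (7.80 to 7.83), 11.26 for Hspa9 (12.20 to 12.29), 8.99 for Tomm40 (9.25 to 9.37) and 8.98 for Hspd1 (9.79 to 9.93). In 10 of these 11 the array was the lowest of its group, and for Atp5g2 it was the highest. The other flags were Cox7a1 in 4.5 g/l replicate 5, at 4.59 (4.95 to 5.15), and Esrra in 0.3 g/l replicate 5, at 6.87 (7.04 to 7.08).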

How the results depend on the processing

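The Cox6a2 difference stayed negative under all 24 alternatives (-2.48 to -1.62) and did not pass in 1, replicates 4 to 6 alone. Calls of small or scattered changes were lost with fewer arrays, and dim genes have compressed differences. No cause was tested for the changes below. With array weights 5419 genes passed, 4 members rose and 14 fell (1 in complex II, 4 in III, 4 in IV). Replicates 4 to 6 alone gave 30 genes and 0 members in either direction or any complex, with a complex V median of -0.032. That set without 0.3 g/l replicate 4, chosen after seeing the data, gave 5 members lower, 0 in complex I and 3 in IV, with medians of -0.015 (complex II) and -0.049 (complex V). Replicates 1 to 3 alone gave 2 higher and 3 lower, with 0 in complex I, 1 assembly factor and 3 in complex IV, and a complex V median of 0.072. Against a fold of 1.2, 454 genes and 1 member (Cox6a2, lower) passed, with 0 higher and 0 in complexes I and III and among assembly factors. With the replicate number as a block, Ndufs7, Ndufv2, Tfb2m, Coa3 and Pdss2 were lost (adjusted p = 0.0685, 0.104, 0.0556, 0.0650 and 0.0618), 0 members rose, 3 passed in complex I and 1 in complex V. Median centring gave 0 higher, 2 in complex IV and 2 in complex V, and medians of -0.073 (I), -0.0071 (II), -0.084 (III), -0.064 (IV) and -0.033 (V). The median over all genes was then -0.05. Complex IV had 2 and complex V 1 called with a variance trend, with the dimmest 25% left out, and with the replicate ranges as a term.

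Leaving out single arrays, 2514 to 5295 genes passed, with 0 to 4 members higher and 7 to 12 lower; by complex 4 to 6 passed in I, 1 to 3 assembly factors, 0 to 1 in II, 1 to 4 in III, 1 to 3 in IV and 0 to 1 in V. Complex medians then ran from -0.04 to -0.01 (I), 0.02 to 0.06 (II), -0.05 to -0.03 (III), -0.04 to 0.00 (IV) and -0.02 to 0.02 (V). The following changed sign, each uncalled before and after unless a p is given. Median centring gave Cox4i1 -0.020, Cox7a2 -0.0061, Sdhc -0.016 and Ppargc1a -0.042; quantile normalization gave Cox6a1 0.011, Esrra 0.0030 and Ppargc1a -0.054; cyclic loess gave Esrra 0.013 and Ppargc1a -0.020; array weights gave Esrra 0.017. Replicates 1, 2 and 3 alone gave Esrra 0.050 and Sdhc -0.0059. Replicates 4, 5 and 6 alone gave Cox4i1 -0.0068, Cox6b2 -0.38, Cox7a1 -0.029, Cox7a2 -0.048, Gabpa 0.0050, Ppargc1a -0.34 and Sdha -0.018. Without 0.3 g/l replicate 4 these became Cox4i1 -0.031, Cox6b2 -0.44, Cox7a1 -0.037, Cox7a2 -0.038, Sdha -0.079 and Ppargc1a -0.42 (limma adjusted p = 0.0455). Single arrays left out moved Cox4i1 from -0.0096 to 0.049, Cox6b2 from -0.030 to 0.25, Esrra from -0.032 to 0.054, Gabpa from -0.081 to 0.0038 and Ppargc1a from -0.058 to 0.070.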
